A study of Mus musculus with 8 samples.

Results

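The comparison set hippocampus of Pyk2 knockout mice against hippocampus of mice whose Pyk2 cannot phosphorylate itself. It used 4 of the 8 RNA-seq libraries of the study, chosen by genotype: 2 libraries labelled KO, from C57BL/6 mice with a CRISPR knockout of Pyk2, and 2 labelled Y402F, from C57BL/6 mice with a CRISPR Y402F mutation of Pyk2. The other 4 libraries are wild-type C57BL/6 hippocampus, 2 KO controls and 2 Y402F controls; their tables hold no counts, and their values serve only as context. The study asked how Pyk2 restrains contextual fear memory and whether autophosphorylation is needed for it. The KO against Y402F comparison sets a knockout of the gene against loss of that site alone. The Ptk2b transcript was reduced in KO but not absent, and protein was not measured here. The labels give neither age nor sex, nor any fear training, and do not say whether a library is 1 animal or a pool or whether the mutants come from 1 founder, so the spread behind each p-value is that between libraries and may be in part technical.

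Pyk2, encoded by Ptk2b, is a cytoplasmic tyrosine kinase of the focal adhesion kinase family that is abundant in forebrain neurons and is activated when calcium rises. On activation Pyk2 undergoes autophosphorylation at a tyrosine, the residue that Y402F replaces, which makes a docking site for Src-family kinases. Phenylalanine at that position cannot be phosphorylated, but the protein can still act as a scaffold. Immediate early genes are the first genes that neurons transcribe after synaptic activity and calcium entry, and their transcripts are short-lived.

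Ptk2b fell in KO, and it was the one gene that passed the test across all genes. In CPM, the counts of a gene relative to the TMM-scaled total of its library, Ptk2b (Entrez 19229; chromosome 14, 66153257 to 66281100, GRCm38.p6) was at 209 and 254 in KO, against 1312 and 1467 in Y402F. Its log2 difference was -2.59 (SE 0.13, edgeR quasi-likelihood adjusted p = 5.69e-10), so that KO held 16.7% of the Y402F level. The estimated counts behind this were 1204 and 1511 in KO, against 7600 and 8813 in Y402F. Which part of Ptk2b was removed is not stated in the sources used. The transcript length that the authors' tables give for Ptk2b was 3890 and 3893 bases in KO and 3890 and 3888 bases in Y402F. On FPKM scaled by median of ratios, Ptk2b was at 56.1 and 68.7 in KO, 353 and 396 in Y402F, 309 and 308 in KO controls and 323 and 317 in Y402F controls. Ptk2, which encodes focal adhesion kinase, the paralog of Pyk2, was at 90.7 and 82.3 CPM in KO, against 89.1 and 86.9 CPM in Y402F (log2 difference -0.03, SE 0.14, edgeR adjusted p = 0.999).

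The genes on either side of Ptk2b on chromosome 14 showed no shared shift. Of the 20 tested genes nearest to it, 4 had both KO libraries above both Y402F libraries (20%, against 12.8% of all genes tested) and 4 below (20%, against 13.1%), and their median log2 difference was 0.01. Clu, which encodes clusterin and, like PTK2B, is a risk locus of Alzheimer disease in humans, was at 0.12 (SE 0.11). Pnoc, the precursor of the opioid-like peptide nociceptin, had the largest difference among the 20, with 17.4 and 16.8 CPM in KO against 11.4 and 10.8 CPM in Y402F. Its log2 difference of 0.62 (SE 0.22) did not pass the test across all genes (edgeR adjusted p = 0.999).

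**Figure D1:**
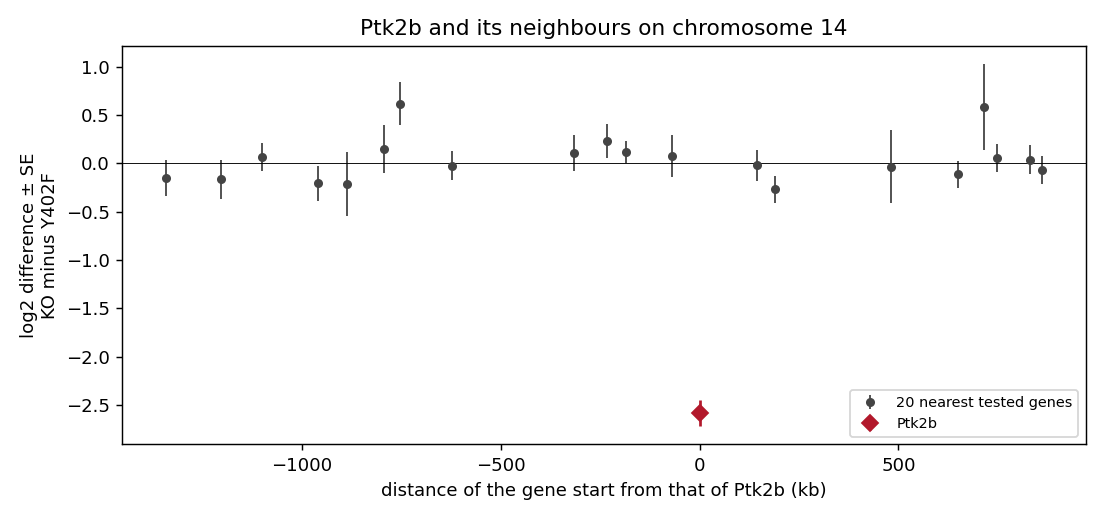
Log2 difference of KO minus Y402F (vertical axis, with SE as bars) of Ptk2b (diamond) and of the 20 nearest tested genes (points), by the distance in kilobases of their start from that of Ptk2b (horizontal axis). Ptk2b lies at -2.59, and the neighbours scatter on both sides of 0, with Pnoc at 0.62 the highest.

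The 4 libraries held between 5756180 and 6017219 estimated counts. Hippocampal markers were present in each: all 15 dentate granule cell genes and all 16 pyramidal cell genes of the lists used were detected in every library. The libraries divided first by replicate number and only then by genotype. The first principal component took 47.8% of the variance and put both replicates 1 on one side (-15.3 for KO, -22.4 for Y402F) and both replicates 2 on the other (17.2 for KO, 20.5 for Y402F). Genotype was separated on the second component, with 26.9%. Xist, the RNA that coats the silenced X of female cells, was at 433 and 2.18 CPM in KO, against 686 and 1.83 CPM in Y402F. Ddx3y, on the Y chromosome, was at 0.174 and 22.3 CPM in KO, against 0.173 and 21.0 CPM in Y402F. Replicate 1 of each genotype thus had a female and replicate 2 a male expression pattern. Differences are therefore also given within replicate 1 and within replicate 2. In a fit without a covariate, the spread between libraries of a genotype includes the difference between these patterns. The common biological coefficient of variation, edgeR's estimate of that spread, was 0.121 in such a fit and 0.0715 with a term for the sex pattern. Y402F replicate 2 stood apart in choroid plexus transcripts: the 16 marker genes summed to 149 and 172 CPM in KO, against 143 and 1127 CPM in Y402F. Of these sums, Enpp2 alone gave 113 and 125 CPM in KO, against 108 and 273 CPM in Y402F.

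Of 13360 genes tested, 1 (0.00749%) was called at an adjusted p under 0.05, and that gene was Ptk2b. At an unadjusted p under 0.05, 114 genes were higher in KO (0.853%) and 140 were lower (1.05%). Both KO libraries lay above both Y402F libraries in 1713 genes (12.8%) and below them in 1754 (13.1%). These shares are the background against which the counts of the lists below are read. Most differences were small: the interquartile range of all genes was -0.12 to 0.11 on the log2 scale, and 86 genes differed by more than 1. DESeq2 called 2 genes (0.015%), Ptk2b and Npas4. Leaving out replicate 1 or replicate 2 of KO gave 18 and 25 calls, and leaving out replicate 1 or replicate 2 of Y402F gave 38 and 26, in fits that no longer balance the sex pattern. Fitted with a term for the sex pattern, which leaves 1 residual degree of freedom, edgeR called 13 genes (0.0973%), 6 higher and 7 lower. The 6 higher genes were Npas4, Fos, Junb, Hba-a2, Tmem181b-ps and Rpl31-ps12. The 7 lower genes were Ptk2b, Ttr, Fmod, Ptgds, Igf2, Xist and Gm20605. Gm20605 rested on 1 library, with 0 and 0 CPM in KO against 7.94 and 0 CPM in Y402F. Xist was lower in KO within replicate 1 only, at 433 against 686 CPM. Within replicate 2 it was at 2.18 CPM in KO against 1.83 CPM in Y402F.

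Npas4 and Fos had the smallest p of the genes with higher KO values. Npas4, Fos, Fosb and Junb encode transcription factors: Npas4 a neuronal factor induced by calcium, Fos and Fosb the Fos-type partners and Junb a Jun-type partner of the AP-1 dimer. Their promoters are shown because the genes had the smallest p of the immediate early list. The 300 bases run from 250 before to 50 after the RefSeq start (GRCm38.p6), 5′ to 3′ on the strand of the gene. Capitals mark TGACG, the core letters of the cAMP response element that the calcium-responsive factor CREB binds, or CGTCA where the same letters lie on the other strand.
Npas4 (chr19:4989922-4990221, minus strand): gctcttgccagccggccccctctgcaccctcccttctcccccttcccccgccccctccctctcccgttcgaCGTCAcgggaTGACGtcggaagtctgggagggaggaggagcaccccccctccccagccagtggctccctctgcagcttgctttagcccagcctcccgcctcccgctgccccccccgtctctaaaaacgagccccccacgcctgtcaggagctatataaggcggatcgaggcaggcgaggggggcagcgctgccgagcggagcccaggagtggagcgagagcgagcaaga
Fos (chr12:85473640-85473939, plus strand): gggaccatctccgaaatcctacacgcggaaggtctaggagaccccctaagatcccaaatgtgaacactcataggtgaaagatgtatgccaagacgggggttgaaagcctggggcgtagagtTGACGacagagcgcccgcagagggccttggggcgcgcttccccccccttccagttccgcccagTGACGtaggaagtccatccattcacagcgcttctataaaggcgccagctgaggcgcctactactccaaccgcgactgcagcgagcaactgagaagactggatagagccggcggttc
Fosb (chr7:19309996-19310295, minus strand): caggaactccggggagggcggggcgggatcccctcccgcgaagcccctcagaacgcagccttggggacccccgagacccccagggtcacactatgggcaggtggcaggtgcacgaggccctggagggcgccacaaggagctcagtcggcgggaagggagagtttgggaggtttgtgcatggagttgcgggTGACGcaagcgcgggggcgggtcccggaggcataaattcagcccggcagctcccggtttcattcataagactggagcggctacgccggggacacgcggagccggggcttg
Junb (chr8:84978699-84978998, minus strand): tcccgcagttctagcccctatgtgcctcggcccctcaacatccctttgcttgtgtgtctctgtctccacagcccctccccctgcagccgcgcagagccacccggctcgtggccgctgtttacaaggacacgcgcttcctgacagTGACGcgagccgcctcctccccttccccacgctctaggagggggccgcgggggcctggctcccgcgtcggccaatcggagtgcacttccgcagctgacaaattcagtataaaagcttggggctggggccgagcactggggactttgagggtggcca

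The Npas4 window holds the motif on both strands, 179 and 169 bases before the start; the Fos window holds it at 129 and 66 bases, the Fosb window at 60 bases and the Junb window at 106 bases before the start. Among all 32851 promoter windows of the RefSeq table, 20.8% hold TGACG on either strand. Of the 16 immediate early genes with a window in that table, 12 had the motif in at least 1 window, against 23.0% of all 27025 genes. Such a match only describes the letters of the window and does not show that a factor binds there.

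Npas4 was at 13.5 and 26.2 CPM in KO, against 6.39 and 3.995 CPM in Y402F. Both KO libraries lay above both Y402F libraries, and replicate 2 gave the wider gap: the log2 difference was 1.05 within replicate 1 and 2.61 within replicate 2. The fitted difference of 1.94 (SE 0.32) stood at an edgeR adjusted p of 0.0516, just short of the threshold. DESeq2 gave an adjusted p of 0.0175, edgeR with other size factors 0.02, with robust dispersion 0.0221 and with the sex term 0.0137. It was not called without a filter on low counts (edgeR adjusted p = 0.468), with a filter on FPKM (0.0541), without KO replicate 2 (0.0713) or by limma (0.497).

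Fos was at 15.8 and 24.5 CPM in KO, against 8.11 and 7.66 CPM in Y402F, with no overlap and a log2 difference of 1.35 (SE 0.26, edgeR adjusted p = 0.122). With the sex term it was 1.34 (edgeR adjusted p = 0.0179), and the difference was 0.93 within replicate 1 and 1.64 within replicate 2. Fosb was at 11.6 and 20.8 CPM in KO, against 7.25 and 5.99 CPM in Y402F (1.29, SE 0.30). It was not called in either fit, with edgeR adjusted p-values of 0.394 and, with the sex term, 0.115. Junb, the most abundant of the 4, was at 86.0 and 120 CPM in KO, against 65.6 and 58.8 CPM in Y402F (0.73, SE 0.17, edgeR adjusted p = 0.394). Its call with the sex term was narrow, at an edgeR adjusted p of 0.0482, and was lost when robust dispersion was added (0.0523).

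The zinc-finger factors of the Egr family did not all lie on the same side. Egr1, a factor widely used as a marker of neuronal activity, was at 195 and 237 CPM in KO, against 173 and 127 CPM in Y402F (log2 difference 0.53, SE 0.17). Egr2 was at 5.56 and 6.21 CPM in KO, against 3.97 and 1.498 CPM in Y402F, and Egr4 at 24.0 and 41.1 CPM in KO, against 21.6 and 21.0 CPM in Y402F. For these 3 genes both KO libraries were the higher ones. Egr3 had the opposite order, with 126 and 138 CPM in KO against 141 and 151 CPM in Y402F (-0.15, SE 0.14). None of the 4 was called in the TMM-scaled edgeR fit without a covariate (edgeR adjusted p = 0.999 for each).

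Nr4a1, an orphan nuclear receptor induced by activity, was at 85.1 and 109 CPM in KO, against 72.5 and 59.8 CPM in Y402F. Its relatives Nr4a2 and Nr4a3 overlapped between the genotypes, with log2 differences of 0.16 and 0.01. Jun, the main partner of Fos in AP-1, was lower in both KO libraries, at 101 and 95.4 CPM, against 113 and 136 CPM in Y402F (-0.35, SE 0.14, edgeR adjusted p = 0.999). The Fos-type genes and Jun therefore lay on opposite sides.

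Over the immediate early list, 20 of 22 genes passed the filter on low counts; Atf3 and Maff did not. No member was called in the TMM-scaled edgeR fit without a covariate, where 8 had an unadjusted p under 0.05 with higher and 1 with lower KO values. Npas4 was called in DESeq2 and in edgeR with other size factors, Npas4 and Fos in edgeR with robust dispersion, and Npas4, Fos and Junb with the sex term. Both KO libraries were higher in 11 members (55.0%, against 12.8% of all genes) and lower in 3 (15.0%, against 13.1%). The median log2 difference was 0.31, against 0.00 for all genes, with 0.15 within replicate 1 and 0.46 within replicate 2. The smaller gap of replicate 1 was shared by most of the genes described above. With any 1 library left out, the median stayed between 0.25 and 0.48.

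**Figure D2:**
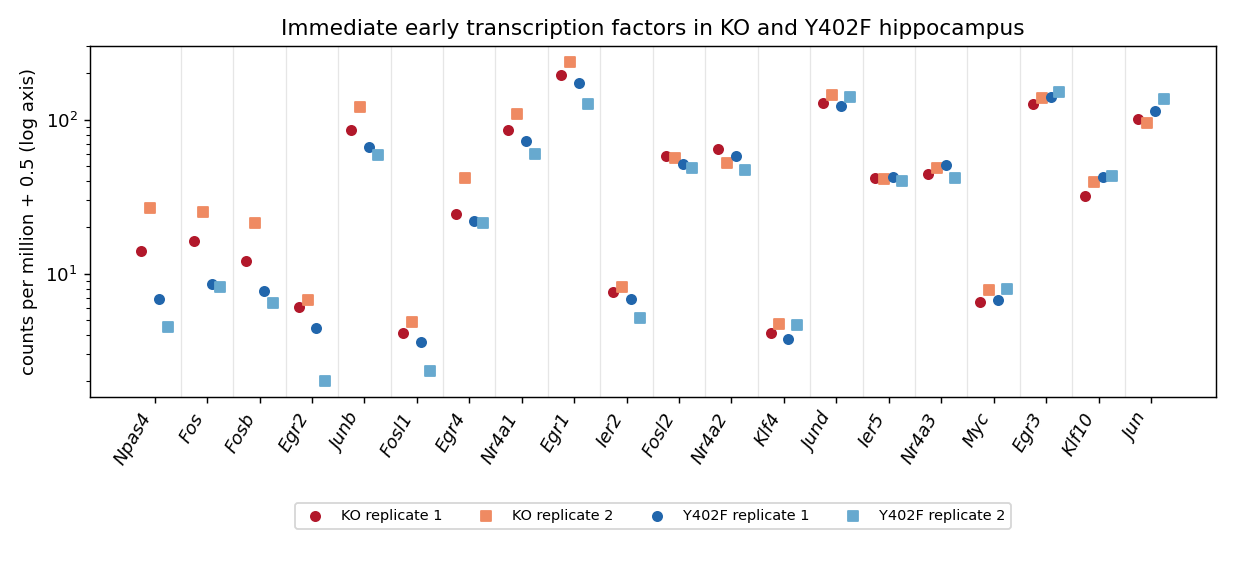
Level (CPM plus 0.5, log axis) of the 20 tested immediate early transcription factors in each library, with KO left of Y402F, circles for replicates 1 and squares for replicates 2, ordered by log2 difference. Npas4, Fos, Fosb, Egr2, Junb, Fosl1, Egr4, Nr4a1, Egr1, Ier2 and Fosl2 have both KO points above both Y402F points, whereas Egr3, Klf10 and Jun at the right end have both KO points below.

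Differences were smaller among the genes that carry out the response to activity. Arc, a cytoskeletal protein that regulates AMPA receptor removal from synapses, was at 179 and 236 CPM in KO, against 156 and 120 CPM in Y402F (log2 difference 0.59, SE 0.17, edgeR adjusted p = 0.999). Dusp6, a phosphatase that turns ERK off, was at 78.7 and 75.6 CPM in KO, against 61.8 and 63.6 CPM in Y402F. Ccn1, a secreted matrix protein, was at 4.69 and 9.23 CPM in KO, against 3.28 and 4.66 CPM in Y402F. Bdnf, the neurotrophin, overlapped, with 39.8 and 41.6 CPM in KO against 48.7 and 27.0 CPM in Y402F. Nptx1, a neuronal pentraxin that clusters AMPA receptors, was one of 4 members below 0 and the one without overlap, with 731 and 843 CPM in KO against 913 and 994 CPM in Y402F (-0.28, SE 0.12).

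Of 28 effectors 26 were tested, and none was called in the TMM-scaled edgeR fit without a covariate or with the sex term. Both KO libraries were higher in 9 (34.6%, against 12.8% of all genes) and lower in 1 (3.85%, against 13.1%). The median log2 difference was 0.15, with 0.05 within replicate 1 and 0.20 within replicate 2. It was 0.28 without Y402F replicate 1 and 0.06 without Y402F replicate 2.

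The wild-type libraries placed these levels between lines. On scaled FPKM, Npas4 was at 4.30 and 8.39 in KO, 2.03 and 1.28 in Y402F, 0.988 and 0.899 in KO controls and 1.99 and 1.92 in Y402F controls. Fos was at 7.88 and 12.4 in KO, 4.07 and 3.84 in Y402F, 2.75 and 1.60 in KO controls and 7.45 and 5.32 in Y402F controls. Arc was at 61.0 and 81.4 in KO, 53.4 and 41.4 in Y402F, 17.3 and 18.2 in KO controls and 33.7 and 35.6 in Y402F controls. All 3 genes were higher in KO than in the KO controls, and all 3 were also higher in the Y402F controls than in the KO controls, which are both wild type. Control values come from another kind of table, so for a mutant against its controls processing and genotype cannot be told apart.

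Several genes of the meninges, the membranes around the brain, had lower KO values. Fmod, a collagen-binding proteoglycan of meningeal fibroblasts, was at 2.26 and 4.70 CPM in KO, against 9.67 and 19.0 CPM in Y402F. The groups did not overlap, and the log2 difference was -1.95 within replicate 1 and -1.94 within replicate 2. The fit gave -2.03 (SE 0.38, edgeR adjusted p = 0.122), and -2.04 with the sex term (edgeR adjusted p = 0.0035). Slc13a4, a sulfate transporter of the leptomeninges and choroid plexus, was at 2.43 and 6.38 CPM in KO, against 9.15 and 12.5 CPM in Y402F (-1.29, SE 0.37, edgeR adjusted p = 0.999).

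Igf2, the growth factor that leptomeninges and choroid plexus secrete in the adult brain, was at 49.1 and 64.3 CPM in KO, against 69.4 and 105 CPM in Y402F. Its log2 difference of -0.62 (SE 0.19) was called with the sex term (edgeR adjusted p = 0.0482) and without Y402F replicate 1 (0.000878), and not in the other fits without the sex term. Ptgds, prostaglandin D synthase, which is strong in leptomeninges and present in oligodendrocytes, was at 171 and 304 CPM in KO, against 251 and 423 CPM in Y402F. The groups overlapped, but KO was the lower one within each replicate number (-0.55 and -0.47), and with the sex term the difference of -0.51 had an edgeR adjusted p of 0.0137. Mgp, a calcification inhibitor, and Col3a1, a fibrillar collagen, also had both KO libraries below, at -0.78 and -1.30.

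Of 18 leptomeningeal and fibroblast markers 17 were tested. None was called in the TMM-scaled edgeR fit without a covariate. With all 4 libraries, Fmod was called with robust dispersion, and Fmod, Ptgds and Igf2 with the sex term. Both KO libraries were lower in 6 (35.3%, against 13.1% of all genes) and higher in 1 (5.88%), and 12 members were lower within both replicate numbers (25.3% of all genes were). The median log2 difference was -0.43, with -0.23 within replicate 1 and -0.45 within replicate 2; without Y402F replicate 2 it was -0.07. Markers of the list summed to 359 and 515 CPM in KO, against 485 and 755 CPM in Y402F. In bulk tissue, fewer cells of a type and less RNA per cell cannot be told apart.

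Choroid plexus genes followed 1 library. Ttr, transthyretin, a major secreted protein of choroid plexus epithelium, was at 1.39 and 11.8 CPM in KO, against 2.59 and 758 CPM in Y402F. Its difference was -0.76 within replicate 1 and -5.97 within replicate 2, and it turned to 1.36 without Y402F replicate 2. With the sex term Ttr was called (-5.77, edgeR adjusted p = 1.19e-08), and with robust dispersion added it was not (0.933). Enpp2, autotaxin, was at 113 and 125 CPM in KO, against 108 and 273 CPM in Y402F. Clic6, a chloride channel protein of the same epithelium, was at 0 and 0.504 CPM in KO, against 1.04 and 6.83 CPM in Y402F, and was not called (-3.84, SE 0.97, edgeR adjusted p = 0.679).

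The choroid plexus list had 8 of 16 markers above the filter, and all 8 had negative log2 differences. Both KO libraries were lower in 3 (37.5%, against 13.1% of all genes) and higher in 0 (against 12.8%). In the TMM-scaled edgeR fit without a covariate 0 were called. Ttr, Clic6 and Enpp2 were called in fits that left out 1 library but kept Y402F replicate 2. Its median was -0.91, with -0.08 within replicate 1 and -1.61 within replicate 2, and 0.03 without Y402F replicate 2. Of the 16 markers, 6 and 2 were at 0 in KO and 4 and 0 in Y402F; Otx2, Cldn2 and Slc4a5 were at 0 in replicate 1 of both genotypes. On scaled FPKM, Ttr was at 1.19 and 10.2 in KO, 2.23 and 656 in Y402F, 9.05 and 7.71 in KO controls and 1015 and 1032 in Y402F controls. The part of this tissue in the lower meningeal values was not tested.

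**Figure D3:**
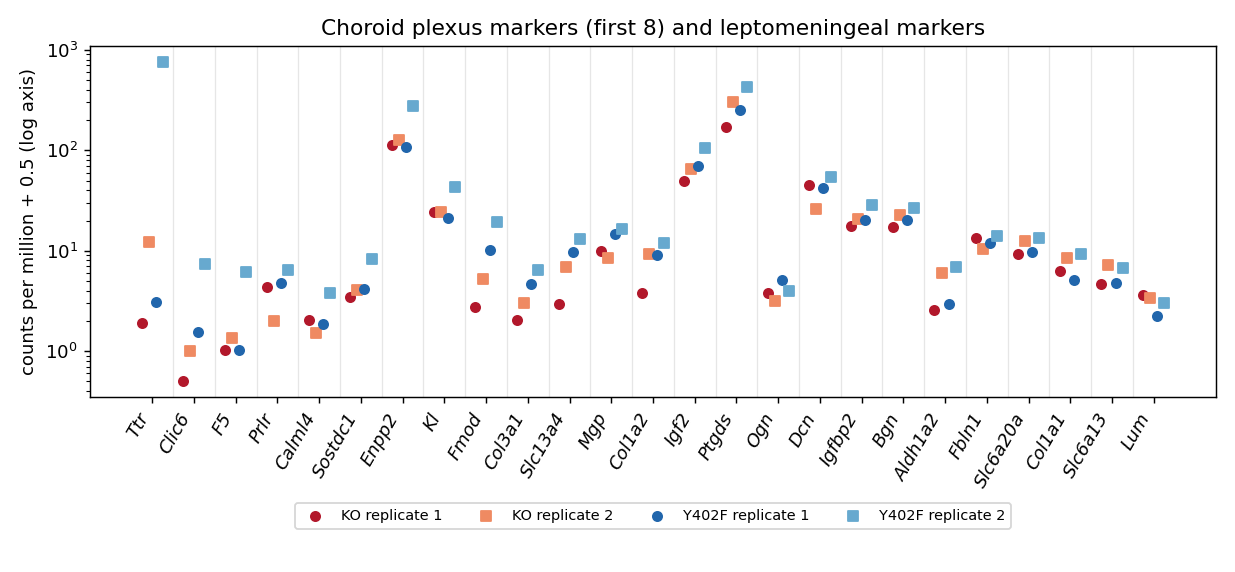
Level (CPM plus 0.5, log axis) of the 8 tested choroid plexus markers, left, and the 17 tested leptomeningeal and fibroblast markers, right, in each library, with KO left of Y402F. Y402F replicate 2 is the highest point of all 8 choroid plexus markers, while Fmod, Col3a1 and Slc13a4 have both KO points below both Y402F points.

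**Figure D4:**
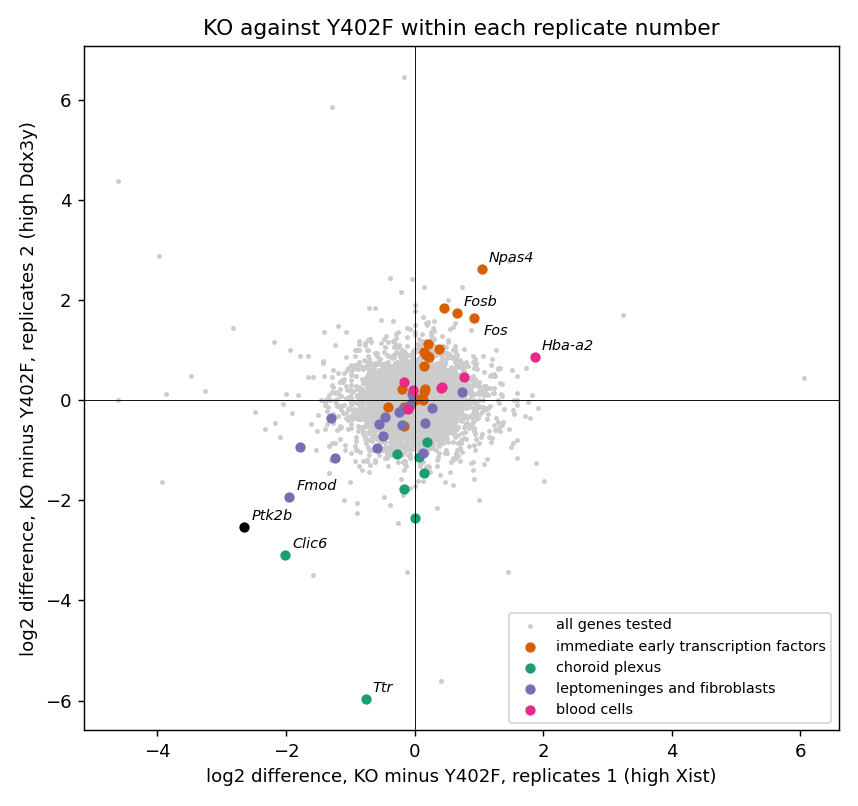
Log2 difference of KO minus Y402F within replicates 1 (horizontal axis) and within replicates 2 (vertical axis) for all 13360 genes tested (grey), with Ptk2b and members of 4 lists in colour. Ptk2b, Fmod and Clic6 lie low on both axes and Npas4, Fos and Fosb high on both, whereas Ttr is at -5.97 on the vertical and -0.76 on the horizontal axis.

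Markers of other cell types showed smaller differences, with no member called over all 4 libraries except Hba-a2, described below, with the sex term. Of dentate granule cell genes, 5 of 15 had both KO libraries below (33.3%, against 13.1% of all genes) and 1 above (6.67%, against 12.8%). Their median log2 difference was -0.19, and -0.08 without Y402F replicate 1. Prox1, the transcription factor that defines granule cells, was at 60.1 and 65.3 CPM in KO, against 78.4 and 75.2 CPM in Y402F (-0.29, SE 0.15). C1ql2, a synaptic organiser of granule cell axons, was at 89.8 and 105 CPM in KO, against 116 and 125 CPM in Y402F. The list summed to 896 and 899 CPM in KO, against 1048 and 962 CPM in Y402F.

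Interneuron markers lay the other way, with both KO libraries higher in 7 of 20 (35.0%, against 12.8% of all genes). Both were lower in 0 (against 13.1%). The median was 0.11, and 0.03 without KO replicate 1. Npy, the peptide neuropeptide Y, was at 71.5 and 101 CPM in KO, against 56.8 and 62.4 CPM in Y402F (log2 difference 0.53, SE 0.17, edgeR adjusted p = 0.999). Cort, the somatostatin-like peptide cortistatin, was at 7.12 and 12.8 CPM in KO, against 5.70 and 4.66 CPM in Y402F. Pvalb, the calcium buffer of fast-spiking interneurons, was at 58.4 and 52.1 CPM in KO, against 42.5 and 42.1 CPM in Y402F.

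Oligodendrocyte genes had positive differences in 17 of 18 members, and 13 were positive within both replicate numbers (25.6% of all genes were). Both KO libraries were higher in 5 (27.8%, against 12.8% of all genes). The median was 0.17, and 0.06 without KO replicate 2. The lineage factors Sox10 and Olig2 led the list. Sox10 was at 51.8 and 66.2 CPM in KO, against 45.6 and 44.3 CPM in Y402F (log2 difference 0.39, SE 0.17), and Olig2 at 44.8 and 44.8 CPM in KO, against 31.1 and 36.8 CPM in Y402F (0.40, SE 0.17). All 16 microglial genes had positive differences over the 4 libraries, but their median was 0.28 within replicate 1 and -0.01 within replicate 2, and over the genotypes 0.04 without Y402F replicate 1 and 0.32 without Y402F replicate 2. Astrocyte, endothelial and pyramidal cell lists had medians of 0.06, -0.03 and -0.03. Ependymal markers had only 5 of 12 genes above the filter, with a median of 0.29 (0.60 without KO replicate 1), and neocortical and thalamic markers had medians of 0.02 and -0.04.

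Blood transcripts were measured as a sign of residual blood. Their 7 tested genes had a median of 0.31, which ran from 0.04 without KO replicate 2 to 0.60 without Y402F replicate 2. Both KO libraries were higher in 1 member (14.3%, against 12.8% of all genes) and lower in 1 (14.3%, against 13.1%). Hba-a2, an alpha-globin gene, was at 18.6 and 15.1 CPM in KO, against 4.83 and 8.16 CPM in Y402F, and was called with the sex term (1.37, edgeR adjusted p = 0.0482). Its near-identical neighbour Hba-a1 overlapped, with 59.4 and 96.9 CPM in KO against 60.4 and 83.9 CPM in Y402F, so the split of shared reads between the copies makes the Hba-a2 value uncertain.

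Among 14 tested kinases and phosphatases around Pyk2, FAK and Src, 5 had both KO libraries above (35.7%, against 12.8% of all genes) and 2 below (14.3%, against 13.1%), with a median of 0.06 and 0 called. Src, the kinase recruited to the autophosphorylated tyrosine of Pyk2, was at 163 and 204 CPM in KO, against 165 and 186 CPM in Y402F (log2 difference 0.06, SE 0.15). Fyn, another Src-family kinase, was at 156 and 148 CPM in KO, against 164 and 166 CPM in Y402F (-0.12, SE 0.14). Among 32 tested partners and substrates the median was -0.04 and 0 were called. Both KO libraries were higher in 3 (9.38%, against 12.8% of all genes) and lower in 3 (9.38%, against 13.1%). Pxn, the adhesion adaptor paxillin, was at 25.01 and 26.2 CPM in KO, against 27.8 and 33.5 CPM in Y402F. Dlg4, which encodes the postsynaptic scaffold PSD-95, was at 0.04 (SE 0.11).

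Glutamate receptor genes had medians near 0, and with 1 library left out these medians turned sign. The 6 tested NMDA receptor genes had a median of -0.01, the 9 AMPA and kainate receptor genes -0.06 and the 7 metabotropic receptor genes -0.08. Grin2b, the GluN2B subunit that Src-family kinases phosphorylate, was at 79.5 and 104 CPM in KO, against 162 and 89.7 CPM in Y402F. Only Y402F replicate 1 stood high, and the log2 difference of -0.46 over all 4 libraries became 0.03 without it. Grin2d, the GluN2D subunit, was at 11.5 and 12.9 CPM in KO, against 6.91 and 9.16 CPM in Y402F (0.60, SE 0.27, edgeR adjusted p = 0.999). Grin1, the obligatory subunit, was at 0.01 (SE 0.13). Medians of the GABA-A receptor, postsynaptic scaffold, Ras-ERK, and calcium and calmodulin lists lay between -0.05 and -0.01.

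Clustered protocadherins, cell-surface proteins that give neurons individual identities, had a median of -0.19. Both KO libraries were lower in 10 of 29 (34.5%, against 13.1% of all genes) and higher in 3 (10.3%, against 12.8%). Pcdhb11 was at 4.34 and 2.52 CPM in KO, against 8.11 and 5.49 CPM in Y402F (log2 difference -0.99, SE 0.38, edgeR adjusted p = 0.999). The list median was -0.30 within replicate 1 and -0.02 within replicate 2, and -0.07 without Y402F replicate 1. Chaperone genes of the cytosol and endoplasmic reticulum had 5 of 25 members below (20%, against 13.1% of all genes) and 0 above (12.8% of all genes), with a median of -0.05. The calcium and calmodulin list had the same counts and a median of -0.05. Nuclear respiratory chain genes had 11 of 30 members above (36.7%, against 12.8% of all genes) and 1 below (3.33%, against 13.1%). Their median was 0.12, and -0.01 without Y402F replicate 1. Ribosomal protein genes had a median of 0.08, which was -0.07 without the same library. The integrin, clock, glucocorticoid, interferon, cholesterol, neurogenesis and Alzheimer risk lists had medians between -0.03 and 0.10, with 0 called.

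**Figure D5:**
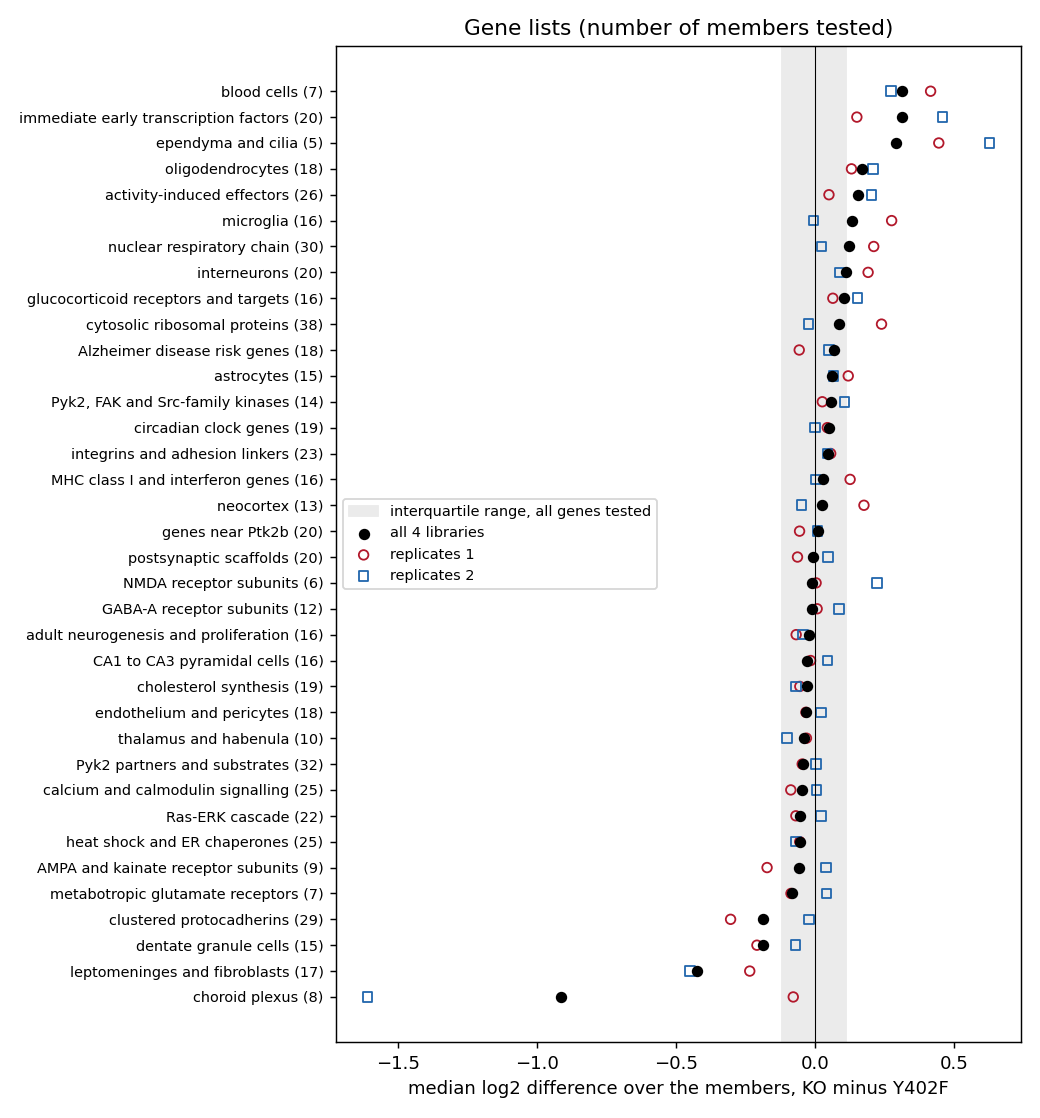
Median log2 difference of KO minus Y402F over the tested members of each gene list described, with all 4 libraries (filled circles), within replicates 1 (open circles) and within replicates 2 (open squares); the grey band is the interquartile range of all genes tested. The immediate early, ependymal, blood and oligodendrocyte lists lie right of the band in all 3 values, and the leptomeningeal list lies left of it in all 3. The choroid plexus list lies far left of it with all 4 libraries (-0.91) and within replicates 2 (-1.61) but not within replicates 1 (-0.08).

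Other genes with the smallest p were scattered in function. Among those with higher KO values, Kcnj2, the inward rectifier potassium channel Kir2.1, was at 19.97 and 16.1 CPM in KO, against 11.7 and 9.49 CPM in Y402F (log2 difference 0.76, SE 0.23), with nearly equal differences within both replicates (0.75 and 0.74). Nelfcd, a subunit of the factor that pauses RNA polymerase II, was at 48.6 and 43.7 CPM in KO, against 29.7 and 33.1 CPM in Y402F (0.55, SE 0.17). Dynlt1c, a dynein light chain gene, was at 4.52 and 4.03 CPM in KO, against 0.173 and 0.999 CPM in Y402F, and has near-identical copies beside it on chromosome 17. With all 4 libraries, none of the 3 was called by edgeR with or without the sex term; limma called Dynlt1c (adjusted p = 0.0344).

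Among genes with lower KO values, Fzd1, a Wnt receptor, was at 4.86 and 5.21 CPM in KO, against 8.80 and 14.2 CPM in Y402F (log2 difference -1.19, SE 0.31). Il1r1, the interleukin-1 receptor, was at 11.6 and 11.1 CPM in KO, against 17.3 and 24.1 CPM in Y402F (-0.87, SE 0.23). Snrpd1, a core protein of the spliceosome, was at 30.0 and 36.6 CPM in KO, against 49.7 and 50.6 CPM in Y402F (-0.59, SE 0.17). Lhfpl2, a tetraspan membrane protein, was at 36.5 and 40.8 CPM in KO, against 57.1 and 56.8 CPM in Y402F (-0.56, SE 0.16). Spp1, the secreted protein osteopontin, was at 2.08 and 0.840 CPM in KO, against 4.83 and 4.33 CPM in Y402F. In all 5 both KO libraries lay below both Y402F libraries, but none was called with all 4 libraries (edgeR adjusted p = 0.999 for each). Rsc1a1 and Fam177a2, the other genes with lower values that the naming rule reached, had log2 differences of -2.36 and -0.77. Neither was called with all 4 libraries.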

How the data were processed

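RNA-seq of mouse hippocampus was used from 2 KO and 2 Y402F libraries. Per the file headers, the tables deposited by the authors give an expected count and an FPKM value per Entrez gene, and a transcript length, treated as a score. For controls the authors deposited FPKM only, with an upper and a lower bound. Bowtie 1, HISAT and mm9 are named for all samples in the submitters' processing notes, which also name Cufflinks. No source used here names the program that made the expected counts. Per sample, 81.1 to 81.7% of expected counts were whole within 0.005. Of 18022 genes listed, all but 35 were matched to RefSeq names and positions (GRCm38.p6).

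Expected counts were rounded, scaled by TMM and tested with the quasi-likelihood test of edgeR 4.0.16 in R 4.3.3, with no covariate and 2 residual degrees of freedom. Genes with a mean of at least 10 counts over the 4 libraries were tested, and p-values were adjusted by Benjamini-Hochberg over all of them. The fit was tested on simulated data. SE is the coefficient divided by the square root of the F statistic. Alternatives were DESeq2 1.42.0, limma 3.58.1 on log2(FPKM + 1), other size factors and filters, robust dispersion, each library left out, a replicate block and a term for the sex pattern (its robust version was added after seeing the data). FPKM of all 8 libraries was scaled by median-of-ratios factors over 11427 genes.

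Comparison, lists and tests were chosen with earlier results of these data known. Named were Ptk2b and Ptk2, the 12 genes in each direction with the smallest p and no overlap (predicted genes, pseudogenes and some noncoding classes left out), and list members with the smallest p or highest level. Other genes, such as further early genes, Src, Fyn, Bdnf, Col3a1, Pcdhb11 and the pseudogenes called with the sex term, were chosen after their values were seen. Figures used matplotlib 3.10.9.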

Additional observations from a re-analysis of the deposited data

How the results depend on the processing

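The call of Ptk2b held under all alternatives, with log2 differences from -2.73 to -2.45 when 1 library was left out. The number of genes called was 1. It was 2 with other size factors, 2 with DESeq2, 2 with limma (Ptk2b and Dynlt1c), 5 with robust dispersion (Ptk2b, Npas4, Fmod, Fos and Tmem181b-ps), 13 with the sex term, 9 with the sex term and robust dispersion, and 18 to 38 with 1 library left out. The fits without a library compare 1 with 2 libraries, take the spread of a lone library from the other genotype, and no longer balance the sex pattern. The numbers of the labels are not stated to pair libraries: a replicate block is the same design as the sex term, with 13 calls, and the differences between replicates 1 and 2 correlated at 0.289 between the genotypes, so this is a hint from 2 pairs only. With 1 library left out, the sign turned for Ptk2 (-0.097 to 0.046), Ttr (-8.08 to 1.36), Enpp2 (-1.20 to 0.15), Grin2b (-0.81 to 0.030) and Xist (-7.28 to 6.87); the cause was not tested. Of 152 list medians with 1 library left out, 28 moved by more than the spread between libraries. With 2 libraries per genotype at this depth, missing calls do not show that genes are alike.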

Other observations

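Gene copies on chromosome 17 were higher in KO, in a family whose reads may be divided between near-identical members; these genes were picked after their values were seen. Tmem181b-ps, a pseudogene at 6439002 to 6450994 (GRCm38), was at 68.9 and 63.1 CPM in KO, against 40.2 and 31.0 CPM in Y402F, and Tmem181a, the intact gene, at 72.9 and 73.0 CPM in KO, against 68.0 and 65.1 CPM in Y402F. The 3 Tmem181 copies summed to 144 and 140 CPM in KO, against 110 and 97.9 CPM in Y402F, a ratio of means of 1.37. Dynlt1c lies in the same cluster, at 6601779 to 6607891, with 25.7 and 24.5 estimated counts in KO against 1.40 and 5.87 in Y402F. The 4 Dynlt1 copies there summed to 91.3 and 82.3 CPM in KO, against 62.0 and 62.9 CPM in Y402F, a ratio of 1.39. Both sums kept the KO libraries above the Y402F libraries.

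Copies picked for their high KO values had larger ratios of means than their family sums, which follows from that choice. Other copies lay below their sums, with Hba-a1 at 1.08 against 1.21 and Tmem181a at 1.10 against 1.37. Dynlt1c alone had a ratio of means of 7.29, against 1.39 for the sum. Hba-a2 alone had a ratio of 2.59, whereas both alpha-globin genes together were at 78.0 and 112 CPM in KO, against 65.3 and 92.1 CPM in Y402F, a ratio of 1.21 with overlap. Rpl31-ps12 alone had a ratio of 1.71, whereas Rpl31 and Rpl31-ps12 together were at 161 and 171 CPM in KO, against 137 and 177 CPM in Y402F, a ratio of 1.06. No test was run on the sums.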
